A study of Mus musculus with 16 samples.

Results

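Expression of 10 marker genes of T cells and natural killer (NK) cells was followed array by array in white fat of obese mice fed with or without a plant extract. The genes encode the CD3 chains (Cd3d, Cd3e, Cd3g), the co-receptors Cd4, Cd8a and Cd8b1, the kinase Lck, and the cytotoxic proteins Prf1, Nkg7 and Gzmb. They were found by gene name on the bead arrays, where the names are spelled in capitals (CD3D, CD3E, CD3G, CD4, CD8A, CD8B1, LCK, PRF1, NKG7, GZMB), and all 10 were present among 25697 probes, with 12 probes in all, since Cd8b1 and Prf1 had 2 probes each. A probe counted as detected on an array when its detection p was under 0.05, and a gene was tested if a probe of it was detected on 4 arrays or more, of 16. This left 7 of the 10 genes among 11050 genes tested, and Cd4, Cd8a and Gzmb were too dim to be tested.

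The arrays measured total RNA from inguinal (subcutaneous, iWAT) and epididymal (visceral, eWAT) white adipose tissue of male C57BL/6J mice made obese on a high-fat diet with 60% of energy from fat. The mice were housed singly and were 17 weeks old when the experimental feeding began and 21 weeks old at its end. For 4 weeks the control mice received the same high-fat diet alone, and the scoparia mice received it with 1% by weight of an extract of Artemisia scoparia, a wormwood. Each of the 4 groups held 4 arrays, and no group of lean mice was analysed here. A number in the sample descriptions joins 1 iWAT with 1 eWAT array and was taken as the animal, which gives 8 mice. The main tests between depots did not use this pairing, and an alternative used it as a block. Levels are log2 normalised intensities, on which a difference of 1 is a doubling, and they were set against each other only within a probe.

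T cells recognise antigen through the T cell receptor, which signals through the CD3 chains, and the kinase Lck, held at the CD4 or CD8 co-receptor, starts that signal. Cytotoxic T cells and NK cells kill by releasing perforin (Prf1) and granzymes such as Gzmb from granules, to whose membrane Nkg7 belongs. In obese adipose tissue, CD8 T cells are known to accumulate with macrophages, and in mice the inguinal fat pad also encloses a lymph node, an organ dense in T and B cells.

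The depot labels were borne out by their markers. All 6 of the 6 visceral and mesothelial genes tested were lower in iWAT than in eWAT in both diets, among them Upk3b, which was at least 25.9-fold lower in iWAT of control mice. Of 5 subcutaneous patterning genes tested, 4 were higher in iWAT of control mice, and the homeobox gene Hoxc10 was at least 15.6-fold higher. In scoparia mice 3 of the 5 were higher in iWAT and 0 were lower, the lowest log2 difference being -0.32. Of all genes tested, 13.1% were higher and 11.7% lower in iWAT of control mice, and 4.35% higher and 6.24% lower in iWAT of scoparia mice. Between 50.5% and 56.2% of probes were detected per array. Arrays 1 and 4 of iWAT control stood apart from the other iWAT arrays, at 48.7 and 34.2 on the second principal component (24.5% of the variance) against -59.9 to -13.8, so values are also given without them. Because the RNA came from whole tissue, fewer T cells and less RNA per T cell cannot be told apart in any of the comparisons.

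Promoter windows, from 250 bases before to 50 bases after a start site, were held by the RefSeq table (build GRCm38.p6) for 8 of the 10 genes, Cd4 and Cd8b1 having none. The windows of the CD3 genes and of Lck are shown because these genes varied together across the arrays. That of Prf1 is shown because it correlated only weakly with them over the 16 arrays (Pearson r from -0.02 to 0.14). Over the 8 iWAT arrays its correlation with them was 0.55 to 0.69. Capitals mark matches, on either strand, to motifs of factors known in T and NK cells: AGGAAG for ETS factors, TGTGGT for RUNX factors, CAGNTG for E-box binding factors, AGATAA for GATA factors and GGTGTGA for T-box factors.
Cd3d, chr9:44981536-44981835, plus strand: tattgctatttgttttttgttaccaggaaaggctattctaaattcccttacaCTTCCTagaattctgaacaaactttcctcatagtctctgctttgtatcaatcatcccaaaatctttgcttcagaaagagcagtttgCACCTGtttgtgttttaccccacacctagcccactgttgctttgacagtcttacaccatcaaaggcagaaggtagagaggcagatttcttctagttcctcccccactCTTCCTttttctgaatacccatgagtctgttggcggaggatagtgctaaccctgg
Cd3e, chr9:45009562-45009861, minus strand: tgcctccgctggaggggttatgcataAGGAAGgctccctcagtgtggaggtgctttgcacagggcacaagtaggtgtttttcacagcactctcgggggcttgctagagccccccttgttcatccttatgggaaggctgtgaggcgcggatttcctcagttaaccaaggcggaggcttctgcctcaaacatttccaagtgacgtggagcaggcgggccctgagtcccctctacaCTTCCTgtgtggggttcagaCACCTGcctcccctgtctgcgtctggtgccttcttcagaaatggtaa
Cd3g, chr9:44980382-44980681, minus strand: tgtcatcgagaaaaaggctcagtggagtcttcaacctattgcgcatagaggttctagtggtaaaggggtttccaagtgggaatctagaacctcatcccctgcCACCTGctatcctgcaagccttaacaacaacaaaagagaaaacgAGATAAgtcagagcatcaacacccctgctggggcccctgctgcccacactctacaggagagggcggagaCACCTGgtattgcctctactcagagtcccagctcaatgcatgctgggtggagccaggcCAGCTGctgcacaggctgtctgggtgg
Lck, upstream start, chr4:129573592-129573891, minus strand: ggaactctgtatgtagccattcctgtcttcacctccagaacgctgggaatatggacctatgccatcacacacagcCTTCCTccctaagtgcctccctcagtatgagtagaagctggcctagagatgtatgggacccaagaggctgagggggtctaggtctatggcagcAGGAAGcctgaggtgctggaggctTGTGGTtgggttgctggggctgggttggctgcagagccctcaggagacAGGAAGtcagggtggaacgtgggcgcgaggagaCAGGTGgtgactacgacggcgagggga
Lck, downstream start, chr4:129558323-129558622, minus strand: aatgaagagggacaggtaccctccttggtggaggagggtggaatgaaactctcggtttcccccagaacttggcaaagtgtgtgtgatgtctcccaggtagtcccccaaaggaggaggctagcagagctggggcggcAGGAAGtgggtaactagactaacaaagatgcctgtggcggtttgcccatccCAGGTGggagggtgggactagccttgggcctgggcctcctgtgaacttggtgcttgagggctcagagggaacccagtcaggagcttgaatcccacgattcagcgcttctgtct
Prf1, chr10:61297586-61297885, plus strand: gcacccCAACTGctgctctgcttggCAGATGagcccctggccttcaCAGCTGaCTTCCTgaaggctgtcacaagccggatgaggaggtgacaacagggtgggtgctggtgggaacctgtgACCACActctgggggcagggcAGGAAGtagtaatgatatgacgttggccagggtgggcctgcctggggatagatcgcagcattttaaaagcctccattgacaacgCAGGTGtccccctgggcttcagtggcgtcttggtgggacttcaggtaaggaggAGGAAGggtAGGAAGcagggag
Cd3d and Cd3g are neighbours on chromosome 9 and are read in opposite directions. The ETS letters were present in the windows of Cd3d, Cd3e, both Lck starts and Prf1, which held 4 copies, and they were not in the Cd3g window. Of all 32851 promoters in the table, 35.4% held these letters. The E-box letters, held by 51.4% of all promoters, were present in all 6 windows shown. The RUNX letters (16.8% of all promoters) were present in the upstream Lck window, at position -58 from the start, and in the Prf1 window, at position -130. The GATA letters (11.2% of all promoters) were present only in that of Cd3g among these 6, and the T-box letters (3.98%) in none of them. No match overlapped another, and a match is a description of the letters and not evidence of a bound factor.

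The CD3 genes were brighter in inguinal than in epididymal fat and spread widely among the inguinal arrays. Cd3d, which encodes the delta chain, stood at 7.98, 10.37, 7.07 and 8.60 on arrays 1 to 4 of iWAT control and at 8.21, 9.37, 9.88 and 11.34 on those of iWAT scoparia. On eWAT arrays of control mice it stood at 6.53, 5.96, 6.84 and 6.15, and on those of scoparia mice at 6.44, 5.96, 6.79 and 5.96. Thus every iWAT array lay above every eWAT array for Cd3d, whereas the diet groups overlapped in both depots, with control array 2 second only to scoparia array 4.

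Cd3e, the epsilon chain against which T cells are most often stained, measured 7.48, 9.50, 6.25 and 7.86 in iWAT control and 7.35, 8.27, 9.03 and 10.71 in iWAT scoparia. Its eWAT levels were 5.76, 5.84, 6.37 and 5.32 with the control diet and 5.80, 4.82, 6.01 and 5.81 with the extract, where array 2 was not detected. Here the depots overlapped slightly in control mice, since iWAT control array 3 lay below eWAT control array 3. Cd3g, the gamma chain, read 7.74, 10.24, 7.08 and 7.43 in iWAT control and 8.06, 9.01, 9.97 and 11.60 in iWAT scoparia. Its eWAT levels ran from 6.00 to 7.25 in control mice and from 5.77 to 7.25 in scoparia mice, so the lowest iWAT array again overlapped with eWAT.

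Of the co-receptor genes, Cd8b1, which encodes the CD8 beta chain carried by cytotoxic T cells, had the widest spread. Its brighter probe stood at 7.52, 10.79, 6.91 and 8.57 in iWAT control and at 8.40, 9.57, 10.45 and 11.97 in iWAT scoparia. Its eWAT levels were 6.22, 5.65, 7.09 and 5.71 with the control diet and 6.62, 5.82, 7.49 and 5.88 with the extract. All 4 scoparia arrays of iWAT exceeded 2 of the 4 control arrays there, and control array 2 exceeded all but array 4 of the scoparia arrays.

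The second Cd8b1 probe was detected on 2 of the 4 iWAT control arrays, on 4 of the 4 iWAT scoparia arrays and on 0 eWAT arrays. Because it was not detected in eWAT, it gives only a bound, of at least 1.39-fold higher in iWAT than in eWAT of control mice and at least 3.58-fold higher in scoparia mice. Cd4, the co-receptor of helper T cells, was detected on 2 of 16 arrays, at 5.48 on iWAT control array 3 and at 6.49 on iWAT scoparia array 4. Cd8a, the CD8 alpha chain, and Gzmb, granzyme B, were detected on 0 of 16 arrays, with levels of 4.34 to 4.66 and of 4.33 to 4.86. For these 3 genes no difference was tested, and a level below detection is not shown to be absent.

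Lck, the kinase that starts T cell receptor signalling, read 7.71, 9.92, 6.78 and 8.32 in iWAT control and 7.65, 9.13, 9.73 and 11.02 in iWAT scoparia. In eWAT it ran from 5.81 to 7.04 in control mice and from 6.04 to 6.83 in scoparia mice. Nkg7, the granule membrane protein of cytotoxic T and NK cells, read 8.84, 9.03, 6.50 and 8.30 in iWAT control and 7.34, 8.01, 9.07 and 10.47 in iWAT scoparia. In eWAT, Nkg7 stood at 7.15, 7.15, 7.35 and 6.09 in control mice and ran from 6.16 to 7.34 in scoparia mice. Both genes followed the order of the CD3 genes in that scoparia array 4 was the brightest and control array 3 the dimmest of the iWAT arrays.

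Prf1, which encodes the pore-forming perforin, showed another order. It stood at 7.10, 7.90, 8.43 and 7.35 in iWAT control and at 8.68, 9.05, 9.10 and 10.30 in iWAT scoparia, and these groups did not overlap. On eWAT arrays it stood at 9.26, 9.59, 9.22 and 9.07 with the control diet and at 9.21, 8.32, 8.55 and 9.22 with the extract. Thus Prf1 was lowest in iWAT control, where every array was above eWAT for Cd3d, and iWAT control array 2, second of the iWAT arrays for Cd3d, was sixth for Prf1. A second Prf1 probe was detected on 2 of 16 arrays, iWAT scoparia arrays 3 and 4, and its levels lay between 4.43 and 5.17 on all arrays, so it gives no difference to set beside the first probe.

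**Figure D1:**
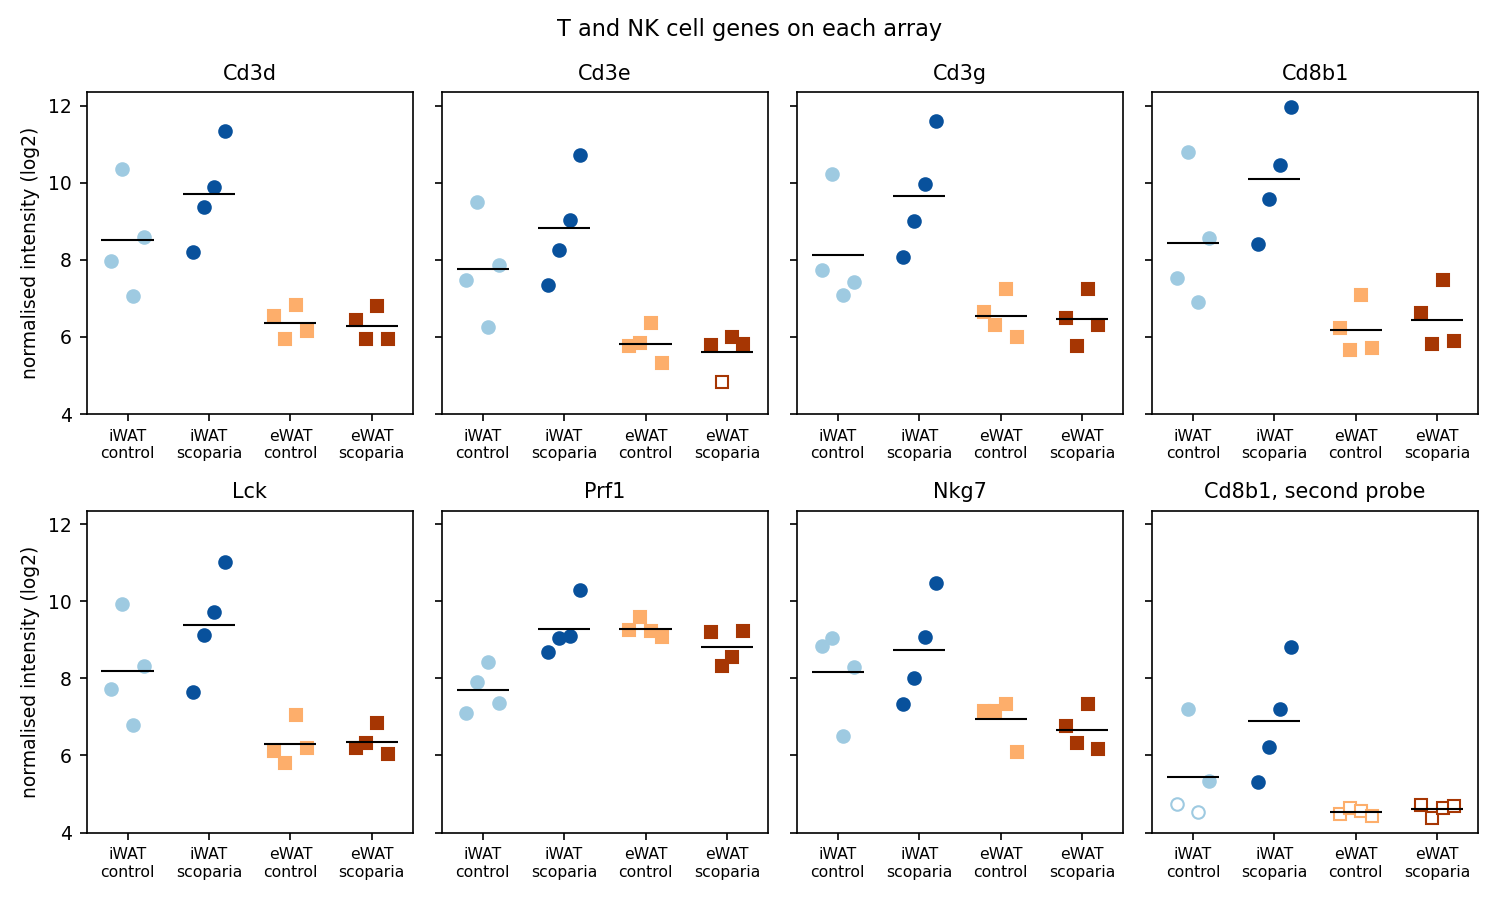
Log2 normalised intensity (vertical axis) of the 7 tested genes and of the second Cd8b1 probe on each of the 16 arrays, by depot and diet. Each point is an array, an open point was not detected at p under 0.05, and each bar is the mean of 4 arrays. For Cd3d the iWAT arrays run from 7.07 to 11.34 and the eWAT arrays from 5.96 to 6.84, and for Prf1 the iWAT control arrays, 7.10 to 8.43, lie below all 4 iWAT scoparia arrays.

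By group mean, the 6 tested genes other than Prf1 were brightest in iWAT scoparia, then in iWAT control, with both eWAT groups below, whereas Prf1 was equally bright in iWAT scoparia and eWAT control (9.28 in each) and dimmest in iWAT control. In the depot comparison, several of these genes were higher in inguinal fat under each diet. In control mice, 4 of the 7 genes tested were higher in iWAT than in eWAT and 1 was lower, while over all genes 13.1% were higher and 11.7% lower (24.8% called in all). Cd3d was 4.39-fold higher (log2 difference 2.13 ± 0.62 (SE), limma adjusted p = 0.0215), with means of 8.50 ± 1.39 (SD, n = 4) in iWAT and 6.37 ± 0.39 (SD, n = 4) in eWAT. Cd8b1 (log2 difference 2.28, adjusted p = 0.0417), Cd3e (1.95, adjusted p = 0.0380) and Lck (1.89, adjusted p = 0.0392) were the other genes that were higher. Cd3g and Nkg7 differed by 1.57 and 1.23 and did not pass (adjusted p = 0.101 and 0.137).

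Prf1 was the gene that was lower in iWAT of control mice, by a log2 difference of -1.59 ± 0.34 (SE, adjusted p = 0.00494), with means of 7.69 ± 0.59 (SD, n = 4) in iWAT and 9.28 ± 0.22 (SD, n = 4) in eWAT. The groups did not overlap for Cd3d and Prf1, a pattern found for 11.1% of all genes as higher and for 6.78% as lower. The median difference of the 7 genes was 1.89, against 0.08 over all genes. With the animal number as a replicate block, 3 of the 7 genes passed, and 2418 of all 11050 genes did, against 2743 in the main fit. Cd8b1 and Lck lost their call in that setting (adjusted p = 0.0609 and 0.0552). Leaving out 1 array at a time moved this count and the calls over all genes. Without iWAT control array 1, eWAT control array 2 or eWAT scoparia array 2, 3 of the 7 passed (1742, 3471 and 2327 of all genes). Without iWAT control array 2 or eWAT control array 1, 2 passed (2924 and 1562 of all genes). Without iWAT control array 4 or eWAT control array 4, 1 passed (1500 and 1683 of all genes). The highest count with 1 array left out was 6. Without iWAT control arrays 1 and 4, 0 of the 7 passed, and calls over all genes fell from 2743 to 1189 of 11050. The differences of Cd3d, Cd8b1, Cd3e and Lck were then 2.35, 2.68, 2.05 and 2.06 (adjusted p from 0.0760 to 0.135). Prf1 then differed by -1.12 (adjusted p = 0.0755).

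In scoparia mice, 6 of the 7 genes were higher in iWAT than in eWAT and 0 were lower, against 4.35% of all genes higher and 6.24% lower (10.6% called in all). Cd8b1 was 12.5-fold higher, with a log2 difference of 3.64 ± 0.77 (SE, adjusted p = 0.00586) between means of 10.10 ± 1.51 (SD, n = 4) and 6.45 ± 0.78 (SD, n = 4). Cd3d was 10.6-fold higher (log2 difference 3.41, adjusted p = 0.00191), Cd3e 9.38-fold (3.23, adjusted p = 0.00386), Cd3g 9.22-fold (3.20, adjusted p = 0.00659) and Lck 8.16-fold (3.03, adjusted p = 0.00514). For these 5 genes the depots did not overlap, as for 11.1% of all genes. Nkg7 was 4.21-fold higher (log2 difference 2.07, adjusted p = 0.0374) with overlapping depots, and Prf1 differed by 0.46 (adjusted p = 0.463). The call of Nkg7 ended with no filter on dim probes (adjusted p = 0.0734) and without iWAT scoparia array 3 or 4, eWAT scoparia array 1, 2 or 4, or eWAT control array 1 (adjusted p from 0.0503 to 0.113, log2 difference from 1.49 to 2.11). Without iWAT control arrays 1 and 4, whose spread enters the shared error, the same 6 genes passed, with adjusted p up to 0.0415. Whether the depot difference itself differed between diets is the same contrast as whether the diet effect differed between depots, and its test is given with the extract comparison.

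Genes of other cell types differed between the depots too. Over all genes, 13.1% were higher and 11.7% lower in iWAT of control mice, and 4.35% higher and 6.24% lower in iWAT of scoparia mice. Of 10 macrophage genes, 9 were lower in iWAT in control mice and 8 in scoparia mice, and their mean level ran from 9.03 to 9.46 on iWAT arrays and from 9.87 to 11.05 on eWAT arrays. Of 8 B cell genes tested, 1 was higher in iWAT in control mice (Cd79b, a signalling chain of the B cell receptor, log2 difference 3.13, adjusted p = 0.0109), when 13.1% of all genes were higher, and 7 in scoparia mice, when 4.35% were. Of 8 lymph node stroma and high endothelium genes tested, 1 was higher and 1 lower in iWAT of control mice, and 3 were higher and 0 lower in iWAT of scoparia mice. The lower gene was Chst4, a sulfotransferase of high endothelial cells, which was detected on 0 iWAT control arrays and was at least 1.27-fold higher in eWAT of control mice (adjusted p = 0.0291). Glycam1, a mucin of the high endothelial venules of lymph nodes, was detected on 7 of 8 iWAT and 0 of 8 eWAT arrays. Glycam1 was at least 8.21-fold higher in iWAT of control mice (adjusted p = 0.00823) and at least 42.4-fold higher in iWAT of scoparia mice (adjusted p = 0.000334). The part of B cells and lymph node tissue in the depot difference of the T cell genes was not tested.

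**Figure D2:**
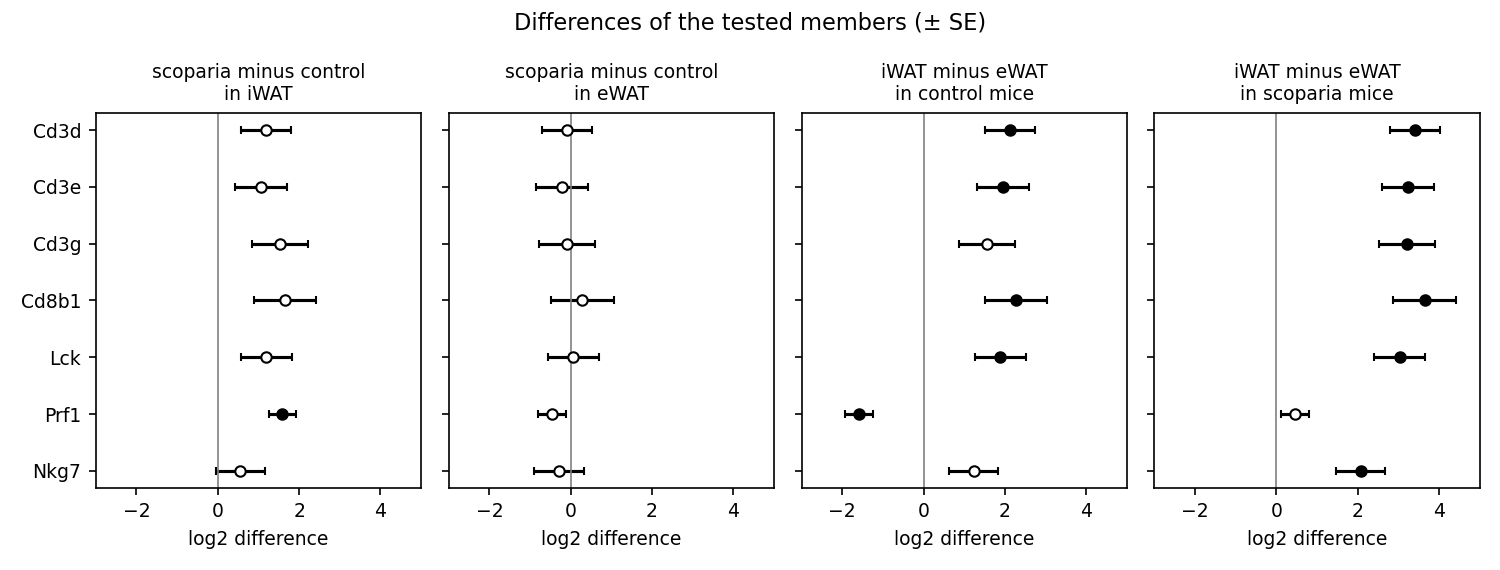
Log2 difference ± SE (horizontal axis) of the 7 tested genes, for scoparia minus control within each depot and for iWAT minus eWAT within each diet; filled points passed an adjusted p under 0.05. In control mice Prf1, at -1.59, lies opposite to Cd3d, at 2.13, and in eWAT the diet differences lie between -0.46 and 0.29.

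The extract comparison asked whether these genes differed between mice fed with and without it. In iWAT, 1 of the 7 genes tested changed with the extract (8.8% of all genes were called, 4.41% as higher and 4.39% as lower), and this was Prf1. Prf1 was 3.01-fold higher in scoparia mice, with a log2 difference of 1.59 ± 0.34 (SE, adjusted p = 0.0209) between means of 7.69 ± 0.59 and 9.28 ± 0.70 (SD, n = 4 each). Its groups did not overlap, as for 4.42% of all genes. The call ended when array 1 or array 4 of iWAT control or array 3 of iWAT scoparia was left out (adjusted p = 0.0639, 0.0787 and 0.0743). In these settings 5, 0 and 0 of all 11050 genes passed. Without both iWAT control arrays 1 and 4, the difference of Prf1 was 1.12 (adjusted p = 0.248), and 4 of all genes passed. Over the 8 iWAT arrays alone it was 1.59 (adjusted p = 0.126), where 0 of all 11050 genes passed.

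The other 6 genes had higher means in iWAT of scoparia mice and did not pass. Cd8b1 differed by 1.65 ± 0.77 (SE, adjusted p = 0.148), Cd3g by 1.54 ± 0.69 (adjusted p = 0.135), Cd3d by 1.20 ± 0.62 (adjusted p = 0.183) and Lck by 1.20 ± 0.63 (adjusted p = 0.190). Cd3e differed by 1.06 ± 0.64 (adjusted p = 0.252) and Nkg7 by 0.56 ± 0.61 (adjusted p = 0.536). The groups of all 6 overlapped, with iWAT control array 2 above 3 of the 4 scoparia arrays for the CD3 genes, Cd8b1 and Lck. When that array was left out, 5 of the 7 genes passed, namely Prf1, Cd8b1 at 2.43, Cd3g at 2.24, Cd3d at 1.82 and Lck at 1.78, but the calls over all genes also rose, from 972 to 2051 of 11050. The median difference of the 7 genes was 1.20, against -0.06 over all genes. Without iWAT control arrays 1 and 4, the differences of the 6 genes lay between 0.96 and 1.25, with adjusted p from 0.644 to 0.677.

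In eWAT, 0 of the 7 genes changed with the extract, and 0% of all genes were called by limma, with 654 genes at an unadjusted p under 0.05. The log2 differences were -0.46 for Prf1 (adjusted p = 0.927), -0.28 for Nkg7, -0.22 for Cd3e, -0.10 for Cd3g, -0.08 for Cd3d, 0.06 for Lck and 0.29 for Cd8b1. Their SE lay between 0.34 and 0.77 and came from an error shared by all 4 groups, not from the eWAT arrays alone. For Cd3d the SD was 0.39 and 0.41 in eWAT control and scoparia, against 1.39 and 1.29 in iWAT. For this gene the shared SE is thus set largely by the inguinal spread. It overstates the spread in eWAT and understates that in iWAT. A difference that did not pass does not show that the levels were alike. The diet effect was tested for a difference between the depots, where 0 of the 7 genes passed and 0.0543% of all genes did. For Prf1 the effect was larger in iWAT by 2.05 ± 0.48 (SE, adjusted p = 0.0880), and for the other 6 genes by 0.84 (Nkg7) to 1.64 (Cd3g), with adjusted p from 0.400 to 0.628. For Prf1 the adjusted p was under 0.05 when iWAT control array 3 was left out or when arrays were weighted, settings in which 428 and 626 of all 11050 genes passed, against 6 otherwise. With both depots averaged for each animal number, which gave 8 values, 0 of the 7 genes passed and 0% of all genes did (2390 genes had an unadjusted p under 0.05), the smallest adjusted p among the 7 being 0.205 for Cd8b1, whose difference was 0.97.

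The T cell genes varied together from array to array, and several other gene lists varied with or against them. Between Cd3d, Cd3e, Cd3g, Cd8b1 and Lck the Pearson correlation over the 16 arrays lay between 0.97 and 0.99, and between these and Nkg7 it lay between 0.90 and 0.94. These 5 genes ordered the brightest 4 iWAT arrays alike, scoparia 4, control 2, scoparia 3 and scoparia 2, and had control 3 last. Prf1 correlated with the other 6 genes at -0.03 to 0.14 over the 16 arrays and at 0.34 to 0.69 over the 8 iWAT arrays. These correlations are given as descriptions, since the arrays share depots, diets and normalisation.

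The mean level of the 8 B cell genes ran from 5.60 to 8.72 in iWAT control, from 6.91 to 10.36 in iWAT scoparia, from 5.23 to 6.14 in eWAT control and from 5.51 to 5.65 in eWAT scoparia. On iWAT it was highest on scoparia array 4, at 10.36, followed by scoparia array 3 at 9.41 and control array 2 at 8.72, which were also the brightest 3 arrays for Cd3e. The mean of the 8 lymph node genes was likewise highest on these 3 arrays, at 10.13, 9.16 and 9.07, and lowest on iWAT control array 1, at 6.15. The correlation of the mean of the 6 T and NK cell genes other than Prf1 was 0.94 with the B cell mean and 0.91 with the lymph node mean over 16 arrays, and 0.88 and 0.89 over the 8 iWAT arrays. Over these 8 arrays it was 0.86 with the mean of 5 dendritic cell genes, -0.89 with that of 5 subcutaneous patterning genes and -0.78 with that of 10 adipocyte genes. Pax5, a defining B cell factor, was detected on no array. The part of lymph node tissue in the spread of the T cell genes among iWAT arrays was not tested.

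**Figure D3:**
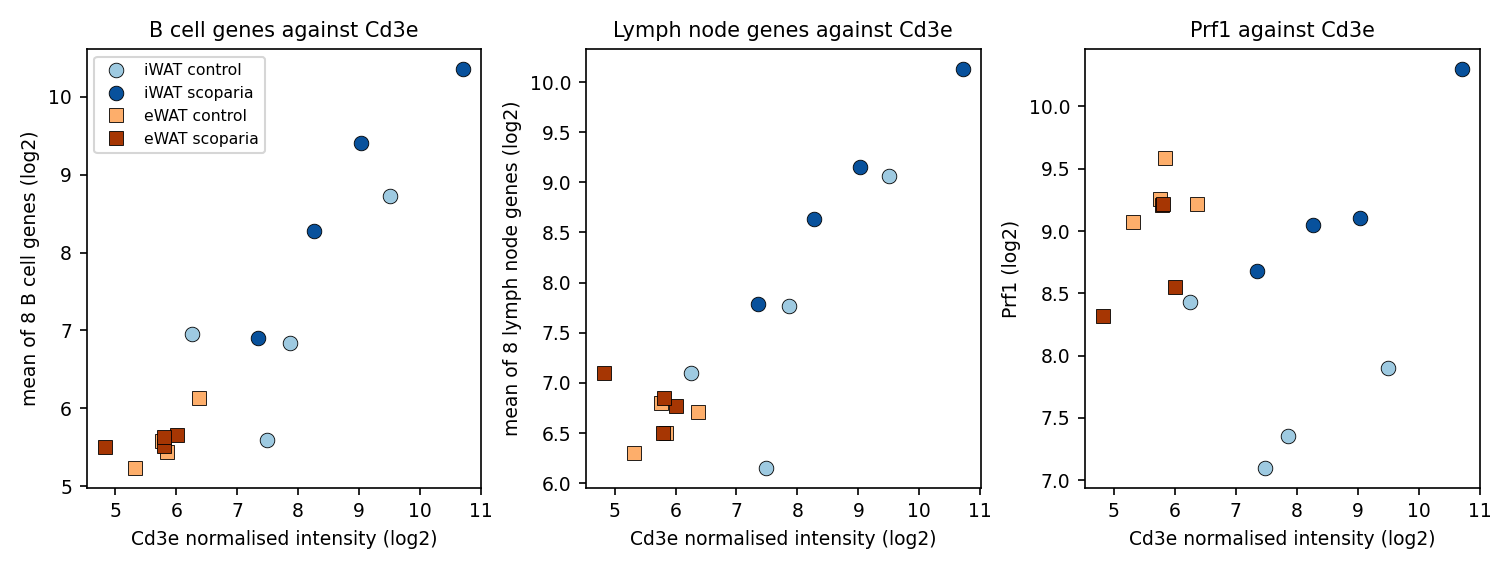
Mean log2 level of 8 B cell genes (left), mean log2 level of 8 lymph node genes (centre) and log2 level of Prf1 (right) against the log2 level of Cd3e on each of the 16 arrays, coloured by group. The 3 iWAT arrays highest for Cd3e, from 9.03 to 10.71, are also highest for both lists, while for Prf1 the control array among them stands at 7.90.

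Values for other cell types and for the arrays are given beside the diet comparison in iWAT, where 8.8% of all genes were called. The mean level of 10 adipocyte genes ran from 12.06 to 12.34 in iWAT control and from 11.49 to 12.02 in iWAT scoparia, without overlap, although 0 of the 10 genes passed. The share of detected probes was 50.5% to 52.1% in iWAT control and 52.7% to 56.2% in iWAT scoparia. Of 10 macrophage genes 1 rose, the phagocytic receptor kinase Mertk (log2 difference 1.14, adjusted p = 0.0269), of 5 dendritic cell genes 1 rose, Siglech (2.27, adjusted p = 0.0328), and of 5 subcutaneous patterning genes 1 fell, En1 (-1.01, adjusted p = 0.0182). None of the 5 neutrophil, 6 mast cell, 8 endothelial and 8 skeletal muscle genes tested passed in iWAT. Over the 8 iWAT arrays of both diets, Prf1 correlated at -0.94 with the adipocyte mean and at -0.74 with the subcutaneous patterning mean. With the mast cell, dendritic cell, B cell and lymph node means it correlated at 0.85, 0.83, 0.81 and 0.77. For macrophage, neutrophil, endothelial and skeletal muscle means the values were 0.47, -0.27, -0.48 and 0.12. The part of these values in the difference of Prf1 was not tested.

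The other genes of T cell receptor signalling had higher means in iWAT of scoparia mice in 12 of 12 cases, with a median difference of 1.05. Among them 2 rose, Ptprc (CD45, the phosphatase that keeps Lck active, carried by all leukocytes) by 2.18 ± 0.62 (SE, adjusted p = 0.0424) and Rasgrp1, which activates Ras below the receptor, by 1.95 ± 0.57 (adjusted p = 0.0445). Over all genes 4.41% were called higher in that comparison. In control mice 2 of the 12 were lower in iWAT than in eWAT, Ptprc (-2.33, adjusted p = 0.0151) and the adaptor Fyb (-1.94, adjusted p = 0.0149), and none was higher. In scoparia mice 5 were higher in iWAT and none was lower, led by the CD3-bound kinase Zap70 (7.98-fold, adjusted p = 0.00218), Rasgrp1 (2.48, adjusted p = 0.00949) and Prkcq, protein kinase C theta (1.60, adjusted p = 0.0349). Between depots, 11.7% of all genes were lower in iWAT of control mice and 4.35% were higher in iWAT of scoparia mice.

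Of 12 surface and costimulatory genes tested, none passed with the extract in iWAT, 11 of the 12 having higher means with a median difference of 0.83. The lowest adjusted p were those of the interleukin-7 receptor Il7r (2.17, adjusted p = 0.0602) and the interleukin-2 receptor chain Il2ra (0.85, adjusted p = 0.0611). In control mice Lag3, an inhibitory receptor, and Thy1, a T cell antigen also carried by fibroblasts, were higher in iWAT (1.26 and 1.25, adjusted p = 0.00698 and 0.00851), and Il7r was lower (-2.59, adjusted p = 0.0174). In scoparia mice 8 were higher in iWAT, led by Thy1 (1.44, adjusted p = 0.00505), the costimulatory receptor Cd27 (2.69, adjusted p = 0.00729), Cd6 (2.80, adjusted p = 0.0115) and the adhesion receptor Cd2 (2.03, adjusted p = 0.0167). Over all genes, 13.1% were higher and 11.7% lower in iWAT of control mice, and 4.35% were higher in iWAT of scoparia mice.

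Of 10 lineage transcription factors tested, 2 rose with the extract in iWAT, Ets1, a factor of lymphocytes and endothelium, by 1.57 ± 0.38 (SE, adjusted p = 0.0285) and the chromatin organiser Satb1 by 2.08 ± 0.52 (adjusted p = 0.0303), and the median difference was 0.98. Over all genes 4.41% were called higher in that comparison. In control mice 2 of the 10 were higher in iWAT than in eWAT, when 13.1% of all genes were. Among them was Tbx21, the factor T-bet of type 1 and NK cells (1.35, adjusted p = 0.0135). In scoparia mice, where 4.35% of all genes were higher in iWAT, 5 of the 10 were, led by Satb1 (2.90, adjusted p = 0.00185), Tcf7 (at least 7.15-fold, adjusted p = 0.00369), Bcl11b (2.75, adjusted p = 0.00536) and Ets1 (1.80, adjusted p = 0.00613). Tcf7 and Bcl11b are factors that set and hold T cell identity. Of 6 homing genes none passed with the extract in iWAT, with the chemokine receptor Cxcr6 at 0.94 (adjusted p = 0.177). Of these 6, 1 was higher in iWAT in control mice, the lymph node homing receptor Ccr7 (1.76, adjusted p = 0.0322), when 13.1% of all genes were. In scoparia mice 3 of the 6 were higher in iWAT, among them Cxcr5 (3.90, adjusted p = 0.00522) and Ccr7 (adjusted p = 0.0298).

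Of 7 other genes of cytotoxic granules and death ligands tested, none passed with the extract in iWAT, with Srgn, the granule proteoglycan serglycin, at 0.97 (adjusted p = 0.0886) and the chemokine Ccl5 at 1.28 (adjusted p = 0.157). In scoparia mice the protease Ctsw (2.70, adjusted p = 0.00716) and Ccl5 (2.43, adjusted p = 0.0175) were higher in iWAT than in eWAT, and in control mice none passed, although 6 of the 7 had higher means in iWAT, with a median difference of 0.93. Of 10 NK cell receptor genes tested, 1 rose with the extract in iWAT, Klrd1, the CD94 chain of NK receptors, by 1.41 ± 0.42 (SE, adjusted p = 0.0490), and the activating receptor Klrk1 differed by 0.93 (adjusted p = 0.0520). Over all genes 8.8% were called in that comparison, 4.41% as higher. The adaptors Tyrobp and Fcer1g, which macrophages also carry, were lower in iWAT under both diets, by -1.64 and -1.47 in control mice (adjusted p = 0.00379 and 0.00177) and by -2.35 and -1.69 in scoparia mice (adjusted p = 0.000329 and 0.000752). Klra7 (1.49, adjusted p = 0.0339) and Klrd1 (1.42, adjusted p = 0.0416) were higher in iWAT in scoparia mice. Ncr1, the receptor that most strictly marks NK cells in mice, was detected on no array.

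In eWAT none of the genes in these lists passed with the extract, nor did any in the test of the difference between depots. Among the B cell genes none passed with the extract in iWAT, although 8 of 8 had higher means with a median difference of 1.85, among them Blk (2.17, adjusted p = 0.0630). Among the lymph node genes none passed either, the lowest adjusted p being those of the chemokines Ccl21a (2.48, adjusted p = 0.0588) and Ccl21c (2.61, adjusted p = 0.0671), whose near-identical copies may share a probe's signal. Without iWAT control array 1, iWAT control array 4 or iWAT scoparia array 3, respectively 5, 0 and 0 of all 11050 genes passed with the extract in iWAT.

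**Figure D4:**
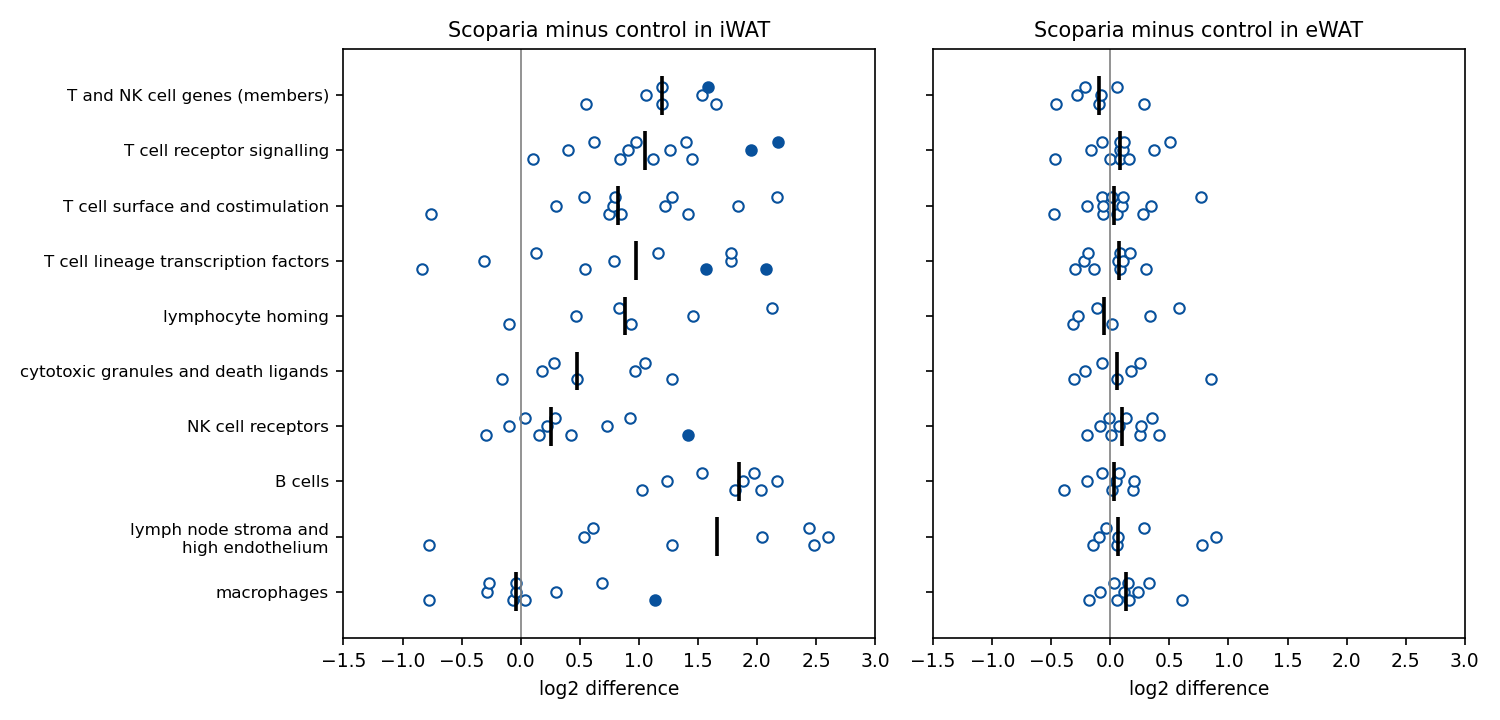
Log2 difference, scoparia minus control (horizontal axis), of each tested gene of 10 gene lists in iWAT (left) and eWAT (right); filled points passed an adjusted p under 0.05 and vertical bars are list medians. In iWAT the medians of the 7 T and NK cell genes (1.20), the B cell genes (1.85) and the lymph node genes (1.67) lie to the right of that of the macrophage genes (-0.04), and in eWAT no point is filled.

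The genes most like the mean of the 7 T and NK cell genes across the 16 arrays included several genes of lymphocytes. They were Ctsw (Pearson r = 0.984), Cd27 (0.983), Il4i1 (0.983), Fcho1 (0.982), Cd6 (0.981), Cd2 (0.980), Foxp3, the factor of regulatory T cells (0.979), Ccl5 (0.979), Tspan32 (0.979) and Zap70 (0.978). After the group means were subtracted, they were Ctsw (0.959), Arl5c (0.959), Ccl5 (0.958), Fcho1 (0.957), Cd2 (0.957), Cd6 (0.955), Pik3cd (0.953), Cd27 (0.953), Rcsd1 (0.952) and Zmynd15 (0.952). Of the first 10, 0 passed with the extract in iWAT.

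The genes most like Prf1 alone, a comparison chosen after its values were seen, were others. They were BC030476 (r = 0.978), Chka, which encodes choline kinase alpha (0.977), Rhbdl2 (0.971), Zxda (0.965), the interferon-gamma receptor chain Ifngr2 (0.951), Mysm1 (0.930), Snapc3 (0.924), the Y-linked RNA helicase Ddx3y (0.923), Dock8 (0.920) and Ubn2 (0.915). All 10 were called higher with the extract in iWAT, which their likeness to Prf1 over the same arrays partly fixes. For Chka the group means were 9.05 in iWAT control, 11.25 in iWAT scoparia, 11.28 in eWAT control and 10.71 in eWAT scoparia, the same order as for Prf1 in having iWAT control lowest.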

How the data were processed

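Per the labels, 400 ng of total RNA per sample was amplified to biotin-labelled RNA for Illumina bead arrays. Per the file headers, the authors deposited average signal intensities and detection p-values from the scanner, and a table of normalized intensities of the same arrays, in which 25.0% of values were at or below 0. GenomeStudio and limma 3.18.13 are listed in the submitters' processing notes, without their roles. For the steps of that normalization nothing is given, and 0 value columns were left unmapped.

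Here R 4.3.3 and limma 3.58.1 were used. Its function neqc took the scanner intensities and detection p-values, subtracted the background, added an offset of 16, set equal quantiles and took log2. Names were updated through RefSeq tables of GRCm38.p6 (20736 probes by symbol, 3872 by a synonym of 1 gene). The deposited name was kept for 104 probes whose name is a synonym of several genes and for 985 unmatched probes. Of several detected probes of a gene the brightest by its mean entered the test, run with lmFit and eBayes on 4 group means over all 16 arrays, with Benjamini-Hochberg adjustment over all 11050 genes and a threshold of 0.05. The quantile step sets all arrays to the same distribution, so levels are relative to the other genes of an array, and the offset shrinks differences of dim probes. A probe detected on no array of a group gives a bound: the brighter group's mean against, per array, the higher of the lowest detected signal and the probe's own. The number of arrays, 4 per group, limits the precision. The fit was tested on simulated data with known differences.

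All probes of the 10 genes are named. Of each other list, up to 4 genes past the threshold are named by p per comparison, or up to 2 as values where none passed. Some genes this rule names are not reported here. The 10 most alike genes are those with the highest Pearson correlation. The members and lists were chosen with earlier results of these data known. The labels name 4 samples per group, and a number in their descriptions joins 1 iWAT and 1 eWAT array, taken as an animal for the mean over both depots. Deviations of same-numbered arrays from their group means correlated at -0.207 to 0.315. The p-values measure the spread between these samples, which may in part be technical. Alternatives were another scaling, offset, filter, probe rule or start from the deposited intensities, array weights, replicate blocks, only the arrays compared, and leaving out arrays.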

Additional observations from a re-analysis of the deposited data

Results flagged for a closer look

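Among 32 groups of 4 arrays examined (the 4 groups of each of 8 probes), 1 held an array far from the rest. Nkg7 stood at 6.09 on eWAT control array 4, while the other 3 arrays of that group stood between 7.15 and 7.35. Chance alone marks about 1 in 20 such groups.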

How the results depend on the processing

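Of the 7 genes tested, 1 changed with the extract in iWAT, and this count was 0 with only the 8 iWAT arrays, 0 with the title number as a replicate block, and 0 without iWAT control arrays 1 and 4 (chosen after seeing the data). In these settings 0, 0 and 4 of all 11050 genes were called, against 972 in the main fit. The count of the 7 ran from 0 to 5 when 1 array was left out. It was 0 without iWAT control array 1 or 4 or iWAT scoparia array 3, where 5, 0 and 0 of all genes were called. It was 5 without iWAT control array 2, where the calls over all genes rose from 972 to 2051. Prf1 kept its direction in all 27 alternatives, at 1.12 to 1.83, and passed in 21 of them (adjusted p 0.00310 to 0.248). For the difference between depots, main count 0, array weights, whose estimation stopped short of its convergence tolerance, gave 1 and leaving out 1 array gave 0 to 1. In control mice the count between depots was 5, when 2743 of all 11050 genes were called. It became 2 with an offset of 50 (2745 of all genes) and 2 with no filter on dim probes (2417 of 17916). It was 1 with only the arrays compared (718 of 11050) and 3 with the animal as a replicate block (2418). Without iWAT control arrays 1 and 4 it was 0 (1189). Leaving out 1 array gave 1 to 6. In scoparia mice it was 5 or 6 in all 26 alternatives. The counts in eWAT (27 alternatives) and over both depots (17) were 0 throughout. The cause of these changes was not tested.

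Signs turned only among differences that did not pass. With array weights Nkg7 in iWAT was -0.0736 and Cd3g in eWAT 0.0132. Leaving out 1 array or animal gave -0.026 to 1.02 for Nkg7 in iWAT and -0.0742 to 0.345 over both depots (where -0.0737 and -0.038 were the other negative values), and in eWAT -0.25 to 0.0748 for Cd3d, -0.384 to 0.0452 for Cd3e, -0.364 to 0.131 for Cd3g, -0.0592 to 0.592 for Cd8b1 and -0.102 to 0.308 for Lck. Median scaling moved the median of all genes from -0.08 to -0.24 for the difference between depots and from 0.02 to -0.09 for iWAT minus eWAT in scoparia mice. Title numbers are shared between diets by samples whose descriptions carry different numbers, and their deviations correlated at -0.319 to 0.312, so they were not taken as pairs. The animal block, taken from the descriptions and not from the correlations, changed no call other than those of Cd8b1 and Lck between depots in control mice. Dim probes limit Cd4, Cd8a and Gzmb, which had no test.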
